A study of Mus musculus with 6 samples.

Results

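Rabggtb encodes the beta subunit of the Rab prenyltransferase (RabGGTase), the enzyme that attaches geranylgeranyl lipids to Rab GTPases so that they can sit in membranes and direct vesicle traffic. Its miRNA hybrids were examined in AGO2 CLASH libraries of mouse P19 cells, an embryonic carcinoma line. The gene was chosen by its large number of hybrid reads and by its higher level in HM cells, so those values are given below as a description with no test. All entries of the hybrid table under the name Rabggtb were taken, 1 gene of the 3200 with a hybrid. It had 267 of 15159 distinct entries and 380 of 15680 reads (2.42%).

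In CLASH, UV light fixes RNA to AGO2, a bound miRNA is ligated to the target fragment beside it, and the 2 are read as 1 hybrid. WT cells had the Dicer (+/+) genotype. HM cells, labelled Dicer (HM/-), had a hotspot mutation of the RNase IIIb domain on 1 allele of Dicer1, with the other allele inactivated, and were a clonal line made by editing P19 cells. Each genotype had 3 libraries, labelled as biological replicates, and both received the same CLASH treatment. The RNase IIIb domain releases 5p-miRNAs from their hairpins. These gave 52.3 to 56.5% of reads in WT libraries and 3.66 to 4.23% in HM libraries. miRNAs of the miR-290 to miR-295 and miR-302 clusters, miR-367 included, which mark pluripotent and embryonic carcinoma cells, gave 34.5 to 38.7% of reads in WT libraries and 56.9 to 59.1% in HM libraries. Library totals ran from 1621 to 2331 reads in WT and from 1661 to 5341 in HM, so that 3 reads, the upper limit allowed by a count of 0, were 0.0562 to 0.185% of a library.

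A miRNA finds its target mainly through its seed, bases 2 to 8 from the 5′ end, which pair with a complementary stretch of the 3′ UTR. An A opposite the first miRNA base adds to the strength of a site, and pairing of the 3′ part of the miRNA can supplement the seed. miR-367-3p comes from the miR-302 cluster of pluripotent cells and shares its seed with miR-25, miR-32, miR-92 and miR-363, which come from other loci.

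All Rabggtb hybrids came from 1 site and 1 seed. The 30 bases that end with the seed match and its A are shown because every result below turns on them. The stretch was read 5′ to 3′ from the deposited target fragments, and its capitals mark the match to bases 2 to 8 with the A that follows.
Rabggtb site: tcagatggagagatgctgtagtGTGCAATA
The 6 miRNAs of this seed in the hybrid table are shown as mature sequences from RefSeq (GRCm38.p6), with the seed in capitals, because they share the seed and differ in the bases after it.
miR-367-3p: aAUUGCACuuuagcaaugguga
miR-363-3p: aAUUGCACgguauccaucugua
miR-25-3p: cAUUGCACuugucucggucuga
miR-92a-3p: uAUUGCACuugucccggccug
miR-92b-3p: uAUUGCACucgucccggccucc
miR-32-5p: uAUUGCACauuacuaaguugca
The site and miR-363-3p are complementary a second time outside the seed, over 8 bases, marked here by capitals in both.
Rabggtb site: tCAGATGGAgagatgctgtagtgtgcaata
miR-363-3p: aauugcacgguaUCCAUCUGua
These are bases 13 to 20 of miR-363-3p and the bases 21 to 14 before the seed match. The longest such run between the site and miR-367-3p had 4 bases (miRNA bases 12 to 15), that of miR-25-3p 5, that of miR-92b-3p and of miR-32-5p 4 each, and for miR-92a-3p no run of 4 bases or more was found.

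Rabggtb had the most hybrid reads of all 3200 genes, ahead of Peg10 with 228 and Atp7a with 189. It ranked first in all 3 HM libraries and held ranks 1, 3 and 7 in WT libraries 1 to 3. WT libraries 1 to 3 held 37, 32 and 15 Rabggtb reads, which is 1.92, 1.37 and 0.925% of their hybrids. HM libraries 1 to 3 held 45, 167 and 84 reads, which is 2.71, 3.13 and 3.00%. Every HM library was above every WT library, with means of 2.95 ± 0.214% in HM and 1.41 ± 0.497% in WT (SD, n = 3 each), a ratio of 2.10. With distinct entries counted once, the means were 2.10% in HM and 1.25% in WT, and the difference was 0.843 points in place of 1.54. A share of all hybrids also depends on the 5p hybrids in the total. These were 52.3 to 56.5% of reads in WT libraries and 3.66 to 4.23% in HM libraries. In bulk libraries, more mRNA of the gene and more AGO2 on each mRNA cannot be told apart either.

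The 2 genotypes overlapped once reads were set against 3p-miRNA hybrids alone. Rabggtb took 4.04, 2.93 and 2.14% of 3p hybrids in the WT libraries (1 to 3) and 2.84, 3.27 and 3.15% in the HM libraries. The means were 3.04 ± 0.954% in WT and 3.08 ± 0.220% in HM, a ratio of 1.02. The highest and the lowest of the 6 values were both from WT cells. The paper reports that a chromosomal cluster of miRNAs was silenced in the HM line, as a clonal effect, and leaves it out of most figures. The 3p totals used here and below leave out no 3p-miRNA, neither those of the cluster nor passenger strands. How far these change the totals was not tested.

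**Figure D1:**
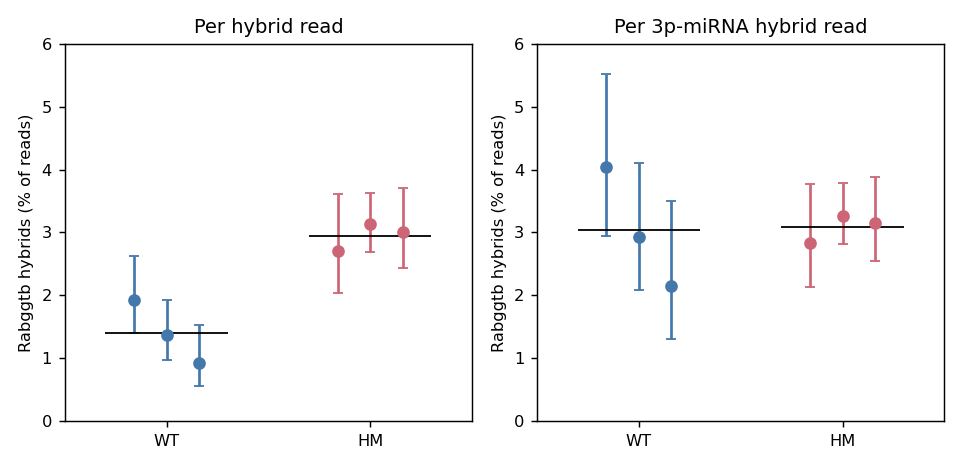
Rabggtb hybrids as a percentage of all hybrid reads (left) and of 3p-miRNA hybrid reads (right), with 1 point per library, 95% Wilson intervals and the group mean as a line. The HM libraries (2.71 to 3.13%) lie above the WT libraries (0.925 to 1.92%) on the left, and the genotypes overlap on the right.

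With fragments joined through any shared run of 12 bases, all 380 reads fell into 1 site, and a run of 10 bases gave the same. A run of 16 bases left 378 reads (99.5%) in that site and 2 reads outside it. The 8-base site, a 7-base seed match followed by A, was present in 375 reads (98.7%). Only 1 read lacked the 7-base match, and its fragment had an undetermined base. The share of Rabggtb reads with a 6-base match to the hybrid's own miRNA was 97.8 ± 3.85% in WT and 100% in all HM libraries (exact permutation test, two-sided, p = 1; n = 3 each). Without entries that hold an undetermined base the share was 100% in both genotypes. The difference thus rests on 1 read, and the test cannot say anything about genotype. Among all other genes the share with a 6-base match was 62.5 to 67.7% in WT libraries and 54.8 to 58.2% in HM libraries. A hybrid is listed only where its miRNA is predicted to target the gene, so the choice of miRNAs at the site is in part set by that filter.

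No Rabggtb hybrid in either genotype came from a 5p-miRNA, and no hybrid came from a 3p-miRNA that the study classed as a passenger strand. The site was thus used by 4 3p-miRNAs of the same seed, all classed as guide strands. No Rabggtb fragment was listed under another gene, and the 15 bases that end with the seed match were found in 0 fragments of other genes.

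miR-367-3p supplied 342 of the 380 reads. Its reads numbered 34, 31 and 14 in the WT libraries (1 to 3) and 37, 151 and 75 in the HM libraries. It was the dominant partner of the site in every library, with 91.9, 96.9 and 93.3% of Rabggtb reads in WT and 82.2, 90.4 and 89.3% in HM. The shares did not overlap, at 94.0 ± 2.56% in WT and 87.3 ± 4.44% in HM (exact permutation test, two-sided, p = 0.1, the smallest that 3 against 3 libraries allow; 0.2 after Benjamini-Hochberg adjustment over 2 miRNAs). The difference of -6.72 points was -4.18 without HM library 1 and -10.1 with distinct entries counted once. This comparison of miRNAs at the site was added after its values were seen.

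miR-363-3p, from an X-linked relative of the miR-17/92 cluster, supplied 31 reads. WT libraries 1 to 3 held 3, 0 and 1 of them, HM libraries 1 to 3 held 7, 13 and 7. Its share of Rabggtb reads was 8.11, 0 and 6.67% in WT and 15.6, 7.78 and 8.33% in HM, so the genotypes overlapped. The means were 4.92 ± 4.33% and 10.6 ± 4.34% (exact permutation test, two-sided, p = 0.2, adjusted p = 0.2; n = 3 each), and the difference of 5.63 points was 3.13 without HM library 1 and 3.17 without WT library 2. miR-25-3p supplied 6 reads, all in HM libraries (1, 3 and 2), and miR-92a-3p supplied 1 read, in WT library 2. Nearly all Rabggtb reads thus came from miR-367-3p or miR-363-3p. Their shares mirror each other, so the tests of these miRNAs are not separate results.

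The 6 miRNAs of the seed made 3301 hybrids in all, and they differed in how much of their own output lay on Rabggtb. miR-367-3p placed 342 of its 2277 reads there (15.0%, 95% Wilson interval 13.6 to 16.5%). miR-363-3p placed 31 of 142 there (21.8%, 15.8 to 29.3%). For both, Rabggtb was the gene with the most reads.

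The other members used the site little. miR-25-3p had 6 of 265 reads on it (2.26%, 1.04 to 4.85%), and its leading gene was Tacc2, with 24 reads. miR-92a-3p had 1 of 550 (0.182%, 0.0321 to 1.02%), while 128 of its reads (23.3%) lay on Atp7a, a copper transporter. miR-92b-3p had 0 of 45 and miR-32-5p 0 of 22, with Wilson intervals that reach 7.87% and 14.9%. The intervals cover counting error only, since reads of a hybrid may be PCR copies.

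Per library, miR-367-3p was above both miR-92a-3p and miR-25-3p. Its own share exceeded that of miR-92a-3p by 14.0 ± 2.74 points and that of miR-25-3p by 12.8 ± 2.54 points (mean ± SD of 6 libraries), and both differences were above 0 in 6 of 6 libraries. miR-25-3p was above miR-92a-3p in 3 of 6 libraries. miR-363-3p and miR-367-3p had no fixed order, with a difference of -7.51 ± 13.6 points and miR-367-3p higher in 1 of 6 libraries, the one with 2 miR-363-3p reads. These values rest on the reads that chose the gene and carry no test.

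**Figure D2:**
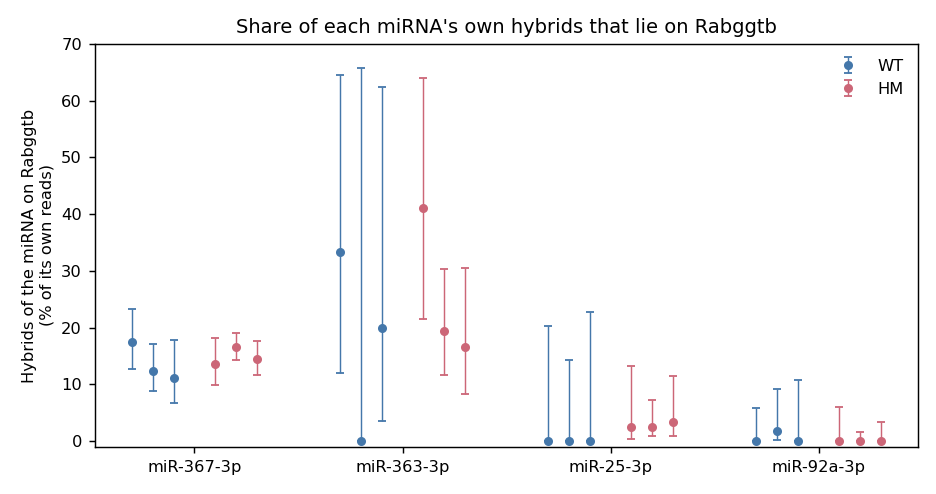
Share of each miRNA's own hybrid reads that lay on Rabggtb, for the 4 miRNAs found there, with 1 point per library and 95% Wilson intervals. miR-367-3p lies between 11.1 and 17.4% in all 6 libraries and miR-92a-3p at or below 1.72%, and the intervals of miR-363-3p in WT are wide because it had 2 to 9 reads per library.

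Whether a miRNA gave more of its hybrids to Rabggtb in HM cells was asked per miRNA. The reads on Rabggtb are those by which the gene was chosen, so the p-values of own shares below are given as a description. For miR-367-3p the own share was 17.4, 12.4 and 11.1% in the WT libraries (34 of 195, 31 of 249 and 14 of 126 reads) and 13.6, 16.5 and 14.4% in the HM libraries (37 of 273, 151 of 914 and 75 of 520). The genotypes overlapped, at 13.7 ± 3.33% and 14.8 ± 1.53%, a difference of 1.17 points (exact permutation test, two-sided, p = 0.6; n = 3 each).

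This difference turned when each distinct hybrid sequence was counted once. miR-367-3p then had 14.4, 11.6 and 11.7% of its entries on Rabggtb in WT and 10.9, 11.0 and 10.2% in HM. No library of the genotypes overlapped, and HM was lower by 1.85 points (12.6 against 10.7%; exact permutation test, p = 0.1, the smallest possible). Rabggtb entries carried 1.23, 1.14 and 1.00 reads on average in the WT libraries (1 to 3) and 1.29, 1.64 and 1.47 in the HM libraries, against 1.01 to 1.04 reads per entry for all other genes in each library. Reads per entry rose with the Rabggtb reads of a library, from 1.00 at 15 reads (WT library 3) to 1.64 at 167 reads (HM library 2). Every HM library held more Rabggtb reads than every WT library, so depth at the site and genotype cannot be told apart in the entry counts. Whether the added reads of an entry are separate molecules or copies was not tested.

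For miR-363-3p the own share was 3 of 9, 0 of 2 and 1 of 5 reads in WT and 7 of 17, 13 of 67 and 7 of 42 reads in HM. The means of 17.8 ± 16.8% and 25.7 ± 13.4% differed by less than their spread (exact permutation test, two-sided, p = 0.6; n = 3 each). With 16 miR-363-3p reads in all WT libraries, a moderate difference was not detectable at this depth.

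Across all miRNA-gene pairs with at least 10 reads, edgeR's quasi-likelihood test per 3p hybrid called 22 of 140 pairs at an adjusted p under 0.05 (15.7%), 3 higher and 19 lower in HM. Of the pairs of Rabggtb, 2 had enough reads to be tested, and neither was among them. Their reads are also those by which the gene was chosen, so their p-values are given as a description. On counts simulated at an assumed noise level, the test recovered 3 of 24 pairs with a 4-fold change (12.5%), over pairs of all depths. The lack of a call therefore does not show that a pair was unchanged. The pair with miR-367-3p had a log2 fold change, HM over WT, of -0.08 (SE 0.36, adjusted p = 0.958), and the pair with miR-363-3p one of 0.96 (SE 0.75, adjusted p = 0.540). With distinct entries counted once the first was -0.50 (SE 0.22, edgeR adjusted p = 0.116). Without WT library 1 the miR-363-3p pair was 2.27 and without WT library 2 it was 0.24. The 39 other miR-367-3p pairs had a median log2 fold change of -0.52 (range -1.98 to 2.82), 27 of them lay below the Rabggtb pair, and 1 was called.

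Set against all hybrids instead of 3p hybrids, the same pairs had log2 fold changes of 0.97 and 1.96, given with no test because the gene was chosen on that scale. On that scale the median of all 140 pairs was 0.84, against -0.17 per 3p hybrid. miR-367-3p itself was 9.52 ± 1.54% of all hybrids in WT and 17.4 ± 1.10% in HM, and 20.7 ± 2.48 and 18.2 ± 1.16% of 3p hybrids. Within its seed family miR-367-3p made up 68.2 ± 2.22% of reads in WT and 69.5 ± 1.30% in HM. The family as a whole placed 12.7, 9.09 and 7.98% of its reads on Rabggtb in WT and 11.5, 12.5 and 11.4% in HM, with overlap.

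Among the 563 genes joined to miR-367-3p, Rabggtb had by far the most reads. Lifr, the receptor of leukemia inhibitory factor, had 67 reads (2.94% of miR-367-3p hybrids). The RNA helicase Ddx3x had 49, the signal recognition particle receptor Srpr 48 and the mitochondrial folate carrier Slc25a32 44. The lowest share of Rabggtb in a library (11.1%) was above the highest share of any other gene of the leading 10 (4.62%, Srpr in WT library 1).

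**Figure D3:**
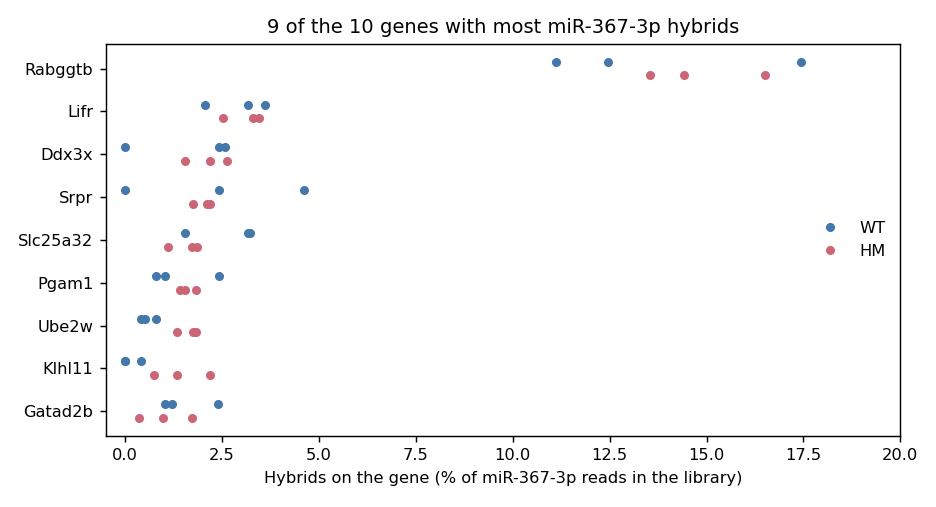
Share of miR-367-3p hybrid reads on each of 9 of the 10 genes with most of them, with 1 point per library. Rabggtb lies between 11.1 and 17.4%, and the other 8 genes lie at or below 4.62%.

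The fragments of the site differed between its miRNAs in where they began. Those joined to miR-367-3p began a median of 13 bases before the seed match (range 9 to 22, 225 entries) and 8 entries (3.56%) reached 20 bases or more. The 2 with most reads are shown because they give the usual extent, with the 8-base site in capitals.
Fragment with 38 reads in 5 libraries: agatgctgtagtGTGCAATAtga
Fragment with 29 reads in 4 libraries: gagatgctgtagtGTGCAATAtga
Fragments joined to miR-363-3p began a median of 23 bases before the seed match (range 20 to 25), and all 29 entries reached 20 bases or more. They thus began at or next to the 8 bases complementary to miR-363-3p. Of the miR-367-3p reads, 24.0% covered the last of those bases and 0.880% the first.

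Mean starts were 12.3, 13.0, 12.4, 13.3 and 12.8 bases before the seed match for miR-367-3p and 22.3, 25.0, 23.7, 22.5 and 22.1 for miR-363-3p in WT libraries 1 and 3 and HM libraries 1 to 3. WT library 2 had no miR-363-3p read on the gene. The difference was 10.4 ± 1.23 bases (mean ± SD), with miR-363-3p longer in 5 of 5 libraries (exact sign-flip permutation test over libraries, two-sided, p = 0.0625, the smallest that 5 libraries allow). This comparison was made after the fragments were seen.

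The long starts were not general to miR-363-3p. In other genes its fragments with a seed match began a median of 11 bases before it, and 4 of 64 entries (6.25%) reached 20 bases. The starts at Rabggtb were 10.9 ± 1.60 bases farther out than those at other genes, in 5 of 5 libraries (exact sign-flip permutation test, two-sided, p = 0.0625, the smallest possible). This comparison, too, was made after the fragments were seen, and each library reads the same site. WT library 3 had 1 entry at Rabggtb and 3 at other genes, and WT library 1 had 3 and 4. Over all miRNAs and all other genes, 7.38% of entries reached 20 bases. The miRNA part of the hybrid had a median of 20 nt for miR-363-3p at Rabggtb and of 22 nt for miR-363-3p at other genes and for miR-367-3p at Rabggtb.

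miR-25-3p fragments had both extents, with a median start of 12 bases before the seed match and 2 of 6 entries that reached 20. Starts of miR-367-3p fragments did not differ between genotypes beyond their spread (12.6 ± 0.355 bases in WT and 12.8 ± 0.461 in HM; exact permutation test, two-sided, p = 0.6; n = 3 each). Past the seed match they ran 8.32 ± 0.666 bases in WT and 7.30 ± 0.339 in HM, with no overlap between the genotypes (exact permutation test, two-sided, p = 0.1, the smallest possible; n = 3 each).

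**Figure D4:**
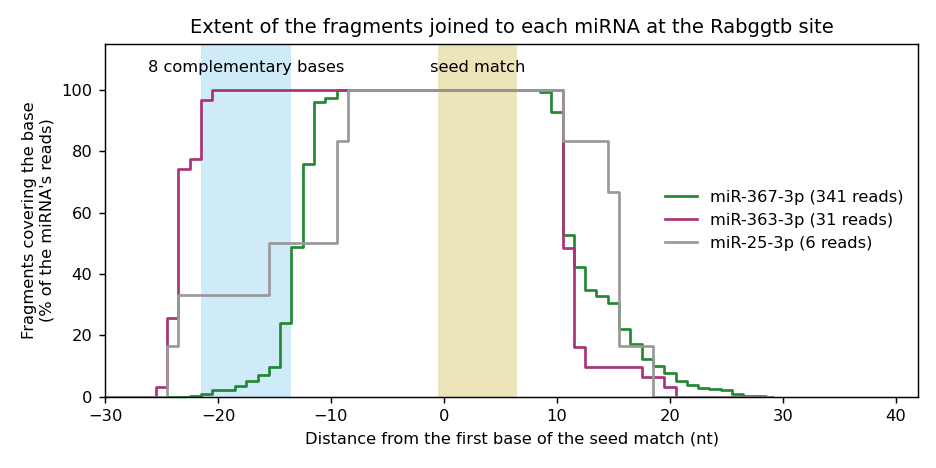
Percentage of each miRNA's Rabggtb reads whose fragment covers a base, by distance from the first base of the seed match in nucleotides. Shading marks the 7-base seed match and the 8 bases complementary to miR-363-3p, of which miR-367-3p fragments cover the last in 24.0% of reads and the first in 0.880%, while all miR-363-3p fragments reach 20 bases or more upstream.

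Predicted pairing energies at the site are given as a description. The duplex of each mature miRNA with the 30 bases above had a predicted free energy of -14.4 kcal/mol for miR-367-3p, -22.0 for miR-363-3p, -22.7 for miR-25-3p, -13.1 for miR-92a-3p, -17.5 for miR-92b-3p and -18.2 for miR-32-5p. With each hybrid's own fragment, the median energy of miR-367-3p was -14.4 kcal/mol at Rabggtb and -9.70 at other genes, and that of miR-363-3p was -22.0 and -12.1. For miR-25-3p it was -12.3 at Rabggtb (6 entries) and -12.8 at other genes, and the only miR-92a-3p entry at Rabggtb had -13.7. Fragments also differed in length. Their medians at Rabggtb and at other genes were 27 and 22 nt for miR-367-3p, 34 and 24 nt for miR-363-3p and 29.5 and 24 nt for miR-25-3p. Energies at equal fragment length were not compared. On the 30 bases the energy of miR-25-3p was thus the strongest of the 6, and on its own fragments it was the weakest of the 4 miRNAs found there. A complete 7-base seed match was present in every entry of both used for the fragment starts at Rabggtb and in 45.2% and 58.2% of their entries at other genes.

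The miRNA use of Rabggtb was shared by few genes. Likeness was the sum over miRNAs of the smaller of the shares of reads, over all 6 libraries, and among 65 other genes with at least 30 reads its median was 7.56%. Srpr came closest (93.9%, 56 reads), followed by Klhl11, a BTB-Kelch protein (88.8%, 35 reads), Slc25a32 (87.9%, 51 reads), the ubiquitin-conjugating enzyme Ube2w (79.1%, 40 reads) and Xylt2, a xylosyltransferase (73.3%, 30 reads). Of these, Srpr also had miR-363-3p hybrids as its second partner, with 8 reads. The 5 genes differed in their level per hybrid. The WT libraries held 0, 1 and 1 Klhl11 reads and the HM libraries 2, 23 and 8, a mean of 0.0340% against 0.337% of hybrids, and Klhl11 rose by 3.07 on the log2 scale (SE 0.84, edgeR adjusted p = 0.00485), in a test per hybrid that called 16.6% of all genes. For Ube2w the WT libraries held 1, 2 and 2 reads and the HM libraries 8, 19 and 8, a mean of 0.0850 against 0.357%, and the gene rose by 2.02 (SE 0.68, edgeR adjusted p = 0.0230). Srpr (0.289% in WT, 0.398% in HM), Slc25a32 (0.323, 0.327%) and Xylt2 (0.187, 0.194%) were not called, with edgeR adjusted p from 0.568 to 0.987. By these edgeR calls per hybrid, a higher level in HM was thus not particular to Rabggtb among the genes used by miR-367-3p. With DESeq2 this did not hold. The 1 gene then called higher in HM was Rabggtb itself (log2 fold change 0.97), and neither Klhl11 nor Ube2w was called. Rabggtb had been chosen for its higher level, so its own call is a description only. With 3p totals as library size, 1 gene was called higher, so the calls of Klhl11 and Ube2w did not both hold.

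Of 21 listed genes, from the mevalonate enzymes to the prenyltransferases and the Rab escort proteins, 4 had a hybrid and 0 had 10 or more. Over all 3200 genes with a hybrid, 344 (10.8%) had 10 or more. Among the 4 listed genes with a hybrid were the CAAX protease Zmpste24 with 3 reads, the isomerase Idi1 with 1 and Rabif, a Rab-interacting factor, with 1. No read of the 4 genes came from the miR-367-3p seed.

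Among the Rab GTPases, the substrates of the enzyme, 3 of the 21 symbols with a hybrid (14.3%, against 10.8% of all genes) had 10 or more reads. None of the reads of these 3 came from the miR-367-3p seed, which made 21.1% of all hybrids. Over all genes, edgeR's quasi-likelihood test per hybrid called 57 of 344 (16.6%) at an adjusted p under 0.05, 20 higher and 37 lower in HM. Rab5b, of early endosomes, had 1, 6 and 2 reads in the WT and 0, 1 and 0 reads in the HM libraries and fell by 3.39 on the log2 scale (SE 1.18, edgeR adjusted p = 0.0292). Its leading partner was the 5p-miRNA miR-20b-5p, and the call was lost without HM library 1 (adjusted p = 0.0576) or HM library 3 (0.0918), and with DESeq2 (0.112). Rab1a, of ER-to-Golgi transport, had a log2 fold change of -0.68 (adjusted p = 0.652), and Rab6a, of the Golgi, one of 0.94 (adjusted p = 0.571), which was -0.05 per 3p hybrid.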

How the data were processed

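Each entry of the deposited table is a distinct hybrid sequence in 1 library, with its miRNA, gene, target fragment and read count. The authors named miRNAs with QuagmiR, aligned fragments with Bowtie2 to mouse 3′ UTRs and kept pairs predicted by TargetScan 8.0. Tool versions, genome build, duplicate removal and treatment of fragments with several matches are not given in the sources used here. Alignment to 3′ UTRs leaves other regions out, the filter limits which miRNAs a site can show, and reads are not known to be independent molecules. Counts were used as deposited, without scaling, and no coordinates are given for the site.

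Groups and replicate numbers came from the sample titles, and 0 sample names of the table were left unused. The gene, its miRNAs, the lists and the rule for named genes were chosen with earlier results of these data known. The rule named miRNAs and sites with at least 10 Rabggtb reads (and up to 5 miRNAs below that), list genes with at least 10 reads and the 5 genes most alike in miRNA use among those with at least 30 reads. The prenylation list was written from general knowledge, and the Rab list was taken by symbol, which brings in Rab3ip, not a GTPase. Guide and passenger names were those of the study.

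Shares were computed per library and compared by exact permutation over libraries, and intervals are 95% Wilson. Fragments were joined into a site by a shared run of 12 bases. Starts of fragments left out entries with an undetermined base in the fragment. Pairs and genes with at least 10 reads were tested with edgeR 4.0.16 in R 4.3.3 and Benjamini-Hochberg adjustment, with 3p totals as library size for pairs and all hybrids for genes. DESeq2 1.42.0 was an alternative. Duplex energies came from ViennaRNA 2.7.2 (RNAduplex), and other values from Python 3.11.15 with numpy 2.4.6, pandas 2.3.3, scipy 1.17.1 and matplotlib 3.10.9. Of 298 miRNA names, 255 were found in the RefSeq table. On simulated counts with 4-fold changes, 3 of 24 changed pairs (12.5%) and 41 of 65 changed genes (63.1%) were recovered, with 0 false calls, among 112 pairs and 289 genes tested. The simulation used a fixed dispersion that was not estimated from these libraries, so its rates hold for that assumed noise only. Library sizes of 1621 to 5341 reads limit the precision of every share. Results for 2 genes, 1 of the leading 10 targets of miR-367-3p and 1 of the prenylation list, are not reported here.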

Additional observations from a re-analysis of the deposited data

How the results depend on the processing

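Of 197 recomputed values, 167 were counted as unchanged. For shares and fragment starts this meant only that the direction did not reverse. For log2 fold changes it meant the same direction and side of the threshold. Counts of calls had to stay within a set range of the main count, and levels with no test within the replicate SD. Shares with a main difference of 0, such as that of 5p-miRNAs, could not reverse, so their alternatives say nothing about stability. The HM minus WT difference of Rabggtb per hybrid, 1.54 points, was 0.843 points with entries counted once and 0.0464 points per 3p hybrid. The own share of miR-367-3p on Rabggtb (1.17 points, HM minus WT) was -1.85 points with entries counted once and ran from -0.11 (without WT library 3) to 3.05 when single libraries were left out. That of miR-363-3p (7.97 points) ran from -0.92 (without WT library 2) to 15.7. The miR-367-3p pair (log2 fold change -0.08) was 0.97 with all hybrids as library size, 0.52 with TMM, 0.21 with DESeq2 and lay between -0.21 and 0.15 on omitting 1 library (the latter WT library 1); counting entries once gave -0.50. The miR-363-3p pair was 1.96 with all hybrids as library size, the scale on which the gene was chosen. Rab6a turned from 0.94 to -0.0495 per 3p hybrid. The cause was not tested.

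The 22 called pairs became 13 with DESeq2, 67 with a minimum of 5 reads, 5 with a minimum of 20, 31 with no minimum, 33 with all hybrids as library size (20 higher, 13 lower) and 8 to 17 when single libraries were left out (8 without WT library 2). The 57 called genes became 19 with DESeq2, 29 with a minimum of 20 reads, 23 with no minimum and 25 to 46 when single libraries were left out (25 without WT library 2). With 3p totals, 69 genes were called, 1 higher and 68 lower, and the median over genes moved from 0.27 to -0.75. Rab5b also lost its call with a minimum of 5 reads (edgeR adjusted p = 0.0548), with no minimum (0.207) and with the replicate block (0.0836), and fell under 10 reads without some libraries.

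The deviations of libraries with the same replicate number had correlations of -0.05, -0.01 and -0.04 over 344 genes. With few reads per gene and library, counting noise can hide a shared deviation, so these values do not decide whether such libraries were paired. A shared preparation was not tested. The replicate block left 13 pairs and 34 genes called, with the Rabggtb pairs at -0.06 (miR-367-3p) and 1.17 (miR-363-3p), neither called. HM libraries 1 and 2 had the highest simulated chi-square p of the HM pairs for a difference in miRNA counts (0.372). Among WT pairs it was highest for libraries 1 and 2 (0.320). Such a p depends on depth and is not a measure of likeness. Summing HM libraries 1 and 2 left 20 pairs and 46 genes called. Depth limits miR-363-3p in WT cells, at 16 reads over 3 libraries.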

Other observations

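The Rabggtb fragments carried a length variant outside the seed match. Of 41 reads that span the run of G in the 8 bases complementary to miR-363-3p, 10 (24.4%) held an additional G, in 5 libraries and both genotypes (3 of 6 reads in WT and 7 of 35 in HM). Sequence was not compared with a genome here, and a base added in the library or by the polymerase was not tested.

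Whole hybrid sequences of Rabggtb recurred between libraries. Of 187 distinct sequences, 48 (25.7%) were present in at least 2 libraries and 32 in both genotypes, against 2.09% of the 14514 sequences of all other genes in at least 2 libraries. Among 66 genes with at least 30 reads, 1 (Sox11) had more reads per entry than Rabggtb, at 1.69 against 1.42. Entries with 1 read made up 81.6% of Rabggtb entries and 98.1% of the others, and the entry with most reads had 16, in HM library 2. Whether recurrence between libraries depends on the reads of a gene was not tested.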
